A study of Mus musculus with 6 samples.

Results

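The fibroblast growth factor (FGF) system was examined in whole lungs of Dppa2 knockout and wild type mouse embryos at stage E18.5, near the end of gestation. It was followed through 10 genes, which are the ligand genes Fgf7, Fgf9 and Fgf10, the receptor genes Fgfr1, Fgfr2, Fgfr3 and Fgfr4, and the target genes Etv4, Etv5 and Spry2. The genes were chosen by name, and every probe whose accession mapped to one of them was used, which gave 19 of the 41174 probes on the array and 10 of the 18217 genes named on it. The study hybridised lung RNA of 6 embryos, 3 knockout and 3 wild type, to 1 array each. The 3 knockout embryos were 15-1Flox/Flox and 15-2-/-, and the 3 wild type embryos were 15-1+/+ and 15-2+/+, all from crosses between carriers of both altered alleles. ECAT15-2 is Dppa2 and ECAT15-1 is Dppa4, so every knockout embryo carried the floxed Dppa4 allele together with the null Dppa2 allele, and the effects of these alleles cannot be told apart. Per the labels, the line combines 129Sv embryonic stem cells, C57/BL6 mice and transgenic mice with Cre or FLPe, whose own background is unknown, and neither sex nor litter of the embryos is given.

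FGF ligands are secreted proteins that bind heparan sulfate and activate receptor tyrosine kinases at the cell surface. In the developing mouse lung, Fgf10 and Fgf7 come from the mesenchyme and act on the epithelial form of the Fgfr2 receptor, which drives the outgrowth of buds, while Fgf9 comes from the epithelium and the mesothelium and acts on the mesenchyme. The signal runs through Ras and MAP kinases to the ETS factors Etv4 and Etv5, and is damped by feedback inhibitors such as Spry2. Fgfr3 and Fgfr4 are known from the formation of alveoli after birth.

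Levels are log2 intensities relative to the 75th percentile of the same array, so that a level of 0 is that percentile, and every difference is knockout minus wild type on this log2 scale. Levels of different probes are not comparable with each other. The arrays had 63.3% to 68.8% of their probes well above background. Dppa2 had a difference of -1.22 with all 3 knockout arrays lower, which did not pass the test (limma adjusted p = 0.06). It passed without knockout 3, the knockout with its highest level (-1.52, limma adjusted p = 0.0149). Dppa2 did not pass without knockout 1 (-1.08, limma adjusted p = 0.153) or without knockout 2 (-1.06, limma adjusted p = 0.131). With normexp background correction it turned to 0.11. Its signal was well above background on all 6 arrays, and the labels do not say if the deletion covers its probe. No array had Dppa4 signal well above background. Wild types 1 and 2 had signal at 6 of 6 probes of Y-linked genes and at 0 of 4 Xist probes, and the other 4 arrays had the reverse, so all 3 knockouts and wild type 3 read as female. Wild types 1 and 2 shared slide 1 with knockout 3, knockouts 1 and 2 shared slide 2, and wild type 3 was on slide 3. Markers of lung epithelium (8 of 8, among them Sftpc and Nkx2-1) and of lung mesenchyme (9 of 9) were above background on every array.

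Promoter sequences were available for 8 of the 10 genes, in 10 windows of 300 bases (250 before to 50 after the annotated start), from RefSeq on the build GRCm38.p6. Those of Fgf9 and Fgf10 are shown because these ligands lay on opposite sides of the wild type arrays, and those of Etv5 and Spry2 because these are targets of the pathway. Each is printed 5′ to 3′ along its gene. Capitals mark the letters GGAAG, or CTTCC where they lie on the other strand. These letters occur in sites that ETS factors such as Etv4 and Etv5 bind, and other forms of such sites are not marked.
Fgf9, chr14:58072436-58072735, plus strand: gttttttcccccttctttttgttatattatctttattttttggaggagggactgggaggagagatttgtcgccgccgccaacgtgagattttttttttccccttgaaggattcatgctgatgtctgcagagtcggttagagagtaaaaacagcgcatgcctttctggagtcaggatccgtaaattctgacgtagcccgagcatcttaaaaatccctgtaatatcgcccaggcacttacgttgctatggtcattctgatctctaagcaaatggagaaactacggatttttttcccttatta
Fgf10, chr13:118714449-118714748, plus strand: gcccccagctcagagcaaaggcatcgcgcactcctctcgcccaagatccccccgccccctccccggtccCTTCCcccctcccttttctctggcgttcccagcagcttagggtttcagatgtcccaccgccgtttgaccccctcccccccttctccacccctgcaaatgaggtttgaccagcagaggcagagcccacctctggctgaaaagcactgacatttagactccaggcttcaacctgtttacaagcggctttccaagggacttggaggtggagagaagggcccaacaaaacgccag
Etv5, chr16:22438319-22438618, minus strand: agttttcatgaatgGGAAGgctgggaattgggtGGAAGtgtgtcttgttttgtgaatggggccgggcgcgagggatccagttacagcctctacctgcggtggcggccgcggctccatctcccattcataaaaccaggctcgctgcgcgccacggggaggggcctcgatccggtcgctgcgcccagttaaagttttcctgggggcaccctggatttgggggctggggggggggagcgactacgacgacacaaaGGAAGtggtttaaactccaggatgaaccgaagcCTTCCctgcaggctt
Etv5, chr16:22439521-22439820, minus strand: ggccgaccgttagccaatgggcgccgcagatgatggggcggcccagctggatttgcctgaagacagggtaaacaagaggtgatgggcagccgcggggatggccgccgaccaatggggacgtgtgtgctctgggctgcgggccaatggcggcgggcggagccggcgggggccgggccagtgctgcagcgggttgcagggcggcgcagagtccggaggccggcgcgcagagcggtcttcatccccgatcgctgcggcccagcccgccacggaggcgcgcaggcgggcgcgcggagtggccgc
Spry2, chr14:105896770-105897069, minus strand: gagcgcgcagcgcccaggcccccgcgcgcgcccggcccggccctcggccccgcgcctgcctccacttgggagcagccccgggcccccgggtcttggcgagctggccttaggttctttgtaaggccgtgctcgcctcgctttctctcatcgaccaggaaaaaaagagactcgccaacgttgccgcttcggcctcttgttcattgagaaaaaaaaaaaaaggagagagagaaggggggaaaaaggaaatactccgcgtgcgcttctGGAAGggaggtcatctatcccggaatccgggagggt
The Fgf9 window and the second Etv5 window held no GGAAG on either strand, the Fgf10 and Spry2 windows held 1 each, and the first Etv5 window held 4. GGAAG was present in 8 of the 10 windows of these genes, and in 71.4% of the 32851 windows of the same length over all genes. The longer ETS site CCGGAAGT was in 0 of the 10 windows (3.89% of all windows), the GC box GGGCGG in 5 (35.7%), and TATAAA in 0 (13.6%), each searched on both strands. CCGGAAGT contains GGAAG, and the last letters of GGGCGG can also be the first of GGAAG. None of these letters was tested against the expression values. The Fgf9 window had 42.7% G and C bases and the second Etv5 window 74.0%, against a median of 52.7% over all windows. These matches describe letters in the windows only.

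No FGF gene passed the test between knockout and wild type lungs. Over all probes tested, 365 of 26666 (1.37%) had an adjusted p under 0.05 in limma's test, and 0 of the 19 FGF probes did. All 19 probes were well above background on all 6 arrays, so that none entered the test through the knockout or the wild type group alone. At an unadjusted p under 0.05 there were 5 of the 19 FGF probes, beside 24.9% of all probes tested. All 3 knockout arrays were above all 3 wild type arrays at 3 FGF probes (15.8% of them, beside 17.3% of all probes tested) and below them at 2 (10.5%, beside 13.3%). These shares are near those of all probes. The differences of the 19 probes ran between -0.40 and 0.57, a change of at most 1.49-fold, with 13 above 0 (68.4%) and a median of 0.21, beside 52.7% above 0 and a median of 0.02 over all probes tested. The median of the 19 probes was 0.09 without wild type 1, 0.13 without knockout 1, 0.25 without knockout 2 and 0.22 with slide as a block. It was 0.11 with a term for sex, which leaves wild type 3 alone against the knockouts. With the array median as the scale it was 0.07, beside -0.11 over all probes tested. With normexp background correction it was 0.31, beside 0.24. Over the 10 genes with 1 probe each it was 0.09, beside -0.04 over 13939 features with 1 probe per gene. In the full comparison, the limma adjusted p of the 19 probes lay between 0.1 and 0.957.

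**Figure D1:**
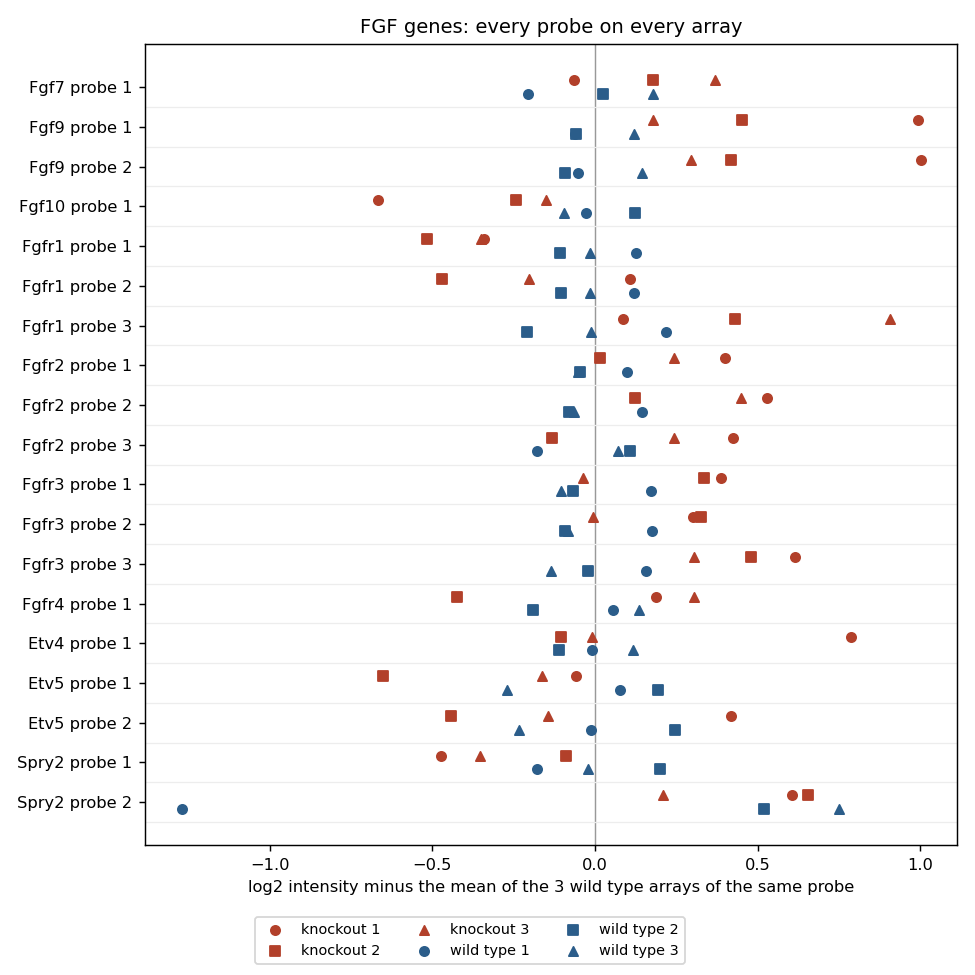
Level of every FGF probe on every array, as log2 intensity minus the mean of the 3 wild type arrays of the same probe (red, knockout; blue, wild type; the shape gives the replicate). The 3 knockouts lie right of all wild types at both Fgf9 probes and at Fgfr3 probe 3, and left of them at Fgf10 and at Fgfr1 probe 1, and the groups overlap at the other 14 probes.

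The plot of every probe on every array shows where the groups separate. Replicates are separate embryos per the labels, and whole lungs were used, so that fewer cells of a type and less RNA per cell cannot be told apart in any of these values.

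Among the ligands, Fgf9 lay higher and Fgf10 lower in every knockout lung, and Fgf7 overlapped between the groups, with no difference passing the test. Fgf9 has 2 probes. At the first, its level was -1.85, -2.39 and -2.66 in knockouts 1, 2 and 3, against -2.90, -2.90 and -2.72 in wild types 1, 2 and 3. The wild types lay close together and the knockouts spread upward from just above them, with knockout 1 highest. The difference was 0.54 (standard error, SE, 0.21; 95% confidence interval 0.06 to 1.03; n = 3 each), with a limma adjusted p of 0.166. At the second probe the level was -3.51, -4.10 and -4.22 in the knockouts, against -4.56, -4.61 and -4.37 in the wild types. The order of the arrays was alike, and the 2 probes correlated at r = 0.99 over the 6 arrays. The second difference was 0.57 (SE 0.19; 95% confidence interval 0.11 to 1.03; limma adjusted p = 0.136; 1.49-fold). Without knockout 1, the array with the highest level, the differences were 0.31 and 0.36.

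Fgf10, the mesenchymal ligand of branching, is read by a probe with 10 spots per array, whose spots differed by an SD of 0.0549 to 0.0960 on the log2 scale within an array. Its level was 0.14, 0.56 and 0.65 in the knockouts, against 0.78, 0.93 and 0.71 in the wild types. All knockouts lay below all wild types, and the gap between the nearest arrays, knockout 3 and wild type 3, was -0.05. The difference was -0.35 (SE 0.16; 95% confidence interval -0.73 to 0.02; limma adjusted p = 0.22; 1.28-fold lower), and it was -0.20 without knockout 1. Fgf7, a further mesenchymal ligand that acts on epithelium, had a level of -0.69, -0.45 and -0.26 in the knockouts, against -0.83, -0.60 and -0.45 in the wild types. The groups overlapped, with a difference of 0.16 (SE 0.16; 95% confidence interval -0.21 to 0.53; limma adjusted p = 0.559).

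Fgf9 and Fgf10 ran opposite to each other across the 6 arrays. Their levels correlated at Pearson's r = -0.98 and Spearman's rho = -0.94, and r was -0.99 over the 4 arrays left without knockout 1 and wild type 2. This was the strongest of 45 pairs of these genes, the arrays share their scaling and their slides, and the value is a description. Among the other pairs, Fgfr2 and Spry2 had r = -0.93 and rho = -0.94 (r = -0.78 without knockouts 1 and 3). Fgf10 and Spry2 had r = 0.80, which was -0.03 without knockout 1 and wild type 2 and so rested on those arrays.

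**Figure D2:**
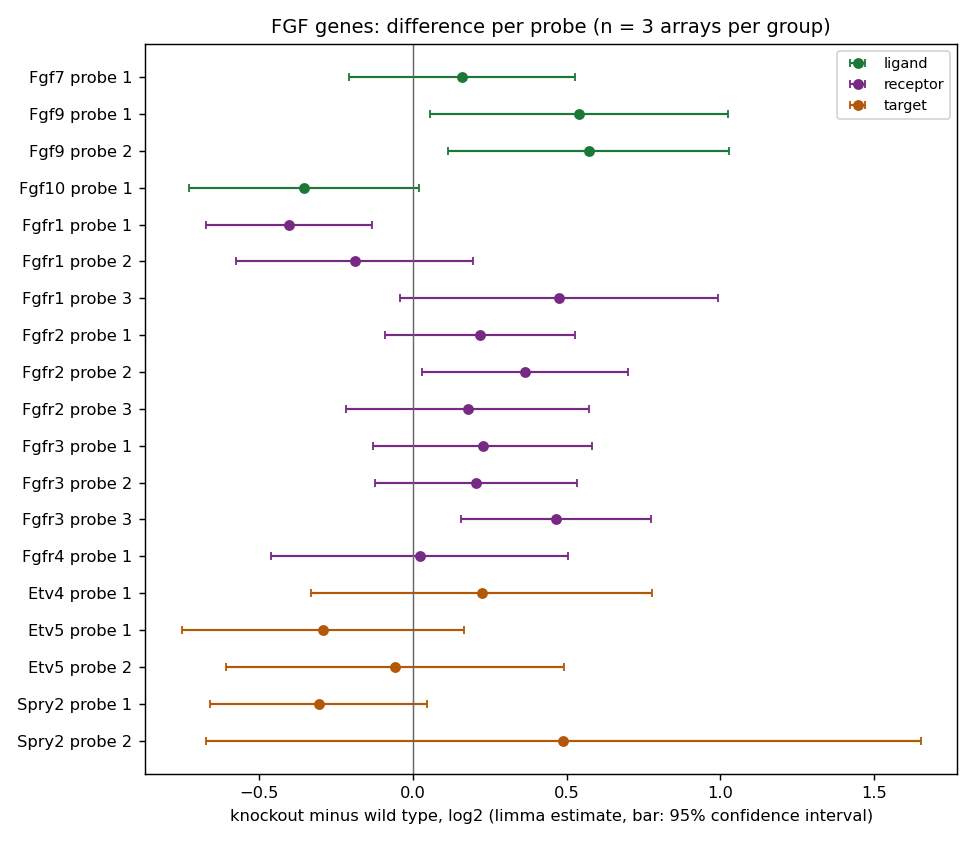
Difference of each FGF probe (knockout minus wild type, log2; points, limma estimate; bars, 95% confidence interval; n = 3 arrays each), coloured by the role of the gene. Intervals leave out 0 at 5 probes, namely both of Fgf9, Fgfr1 probe 1, Fgfr2 probe 2 and Fgfr3 probe 3, and no probe passed after adjustment over all probes.

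Among the receptors, probes of Fgfr2 and Fgfr3 lay on the higher side in knockout lungs, the probes of Fgfr1 disagreed, and Fgfr4 was level, again with no call. The plot of differences with their intervals shows all 10 receptor probes. Fgfr1 encodes a receptor known from mesenchyme and many other cells. Its first probe had a level of -2.20, -2.38 and -2.21 in the knockouts, against -1.74, -1.97 and -1.88 in the wild types. All knockouts were lower, and the difference was -0.40 (SE 0.12; 95% confidence interval -0.67 to -0.13; limma adjusted p = 0.102). The second probe had a difference of -0.19 (SE 0.16; limma adjusted p = 0.507) with overlapping groups. The third ran the other way, at -4.73, -4.38 and -3.91 in the knockouts, against -4.60, -5.02 and -4.83 in the wild types, a difference of 0.47 (SE 0.22; limma adjusted p = 0.231). The first probe correlated at 0.71 with the second and at -0.49 with the third over the 6 arrays, so no single direction holds for this gene. With normexp background correction the first 2 probes turned to 0.06 and 0.71.

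Fgfr2, the receptor of Fgf7 and Fgf10 on lung epithelium, has 3 probes with differences of 0.22, 0.37 and 0.18. At the second, with 8 to 10 usable spots per array (SD between spots 0.0366 to 0.0629), the level was 0.12, -0.29 and 0.04 in the knockouts, against -0.27, -0.49 and -0.47 in the wild types. Knockout 2 lay level with wild type 1, and the other knockouts lay above every wild type. The difference there was 0.37 (SE 0.14; 95% confidence interval 0.03 to 0.70; limma adjusted p = 0.172). The first 2 probes followed each other over the arrays (r = 0.97), and the third did so less closely (r = 0.69 with the first).

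Fgfr3, a receptor with a known part in alveolar growth, also has 3 probes. The first 2 had differences of 0.23 (SE 0.15; limma adjusted p = 0.385) and 0.21 (SE 0.14; limma adjusted p = 0.394), with knockout 3 inside the wild type range. The third had a level of -2.11, -2.25 and -2.42 in the knockouts, against -2.57, -2.75 and -2.86 in the wild types. All knockouts were higher there, and the difference of 0.47 (SE 0.13; 95% confidence interval 0.16 to 0.78; limma adjusted p = 0.1) had the lowest p of the FGF probes. Fgfr4, the partner of Fgfr3 in alveolar growth, had a level of 3.40, 2.79 and 3.52 in the knockouts, against 3.27, 3.02 and 3.35 in the wild types. Its groups overlapped fully, and its difference of 0.02 (SE 0.21; 95% confidence interval -0.46 to 0.51; limma adjusted p = 0.957) turned to -0.11 with the array median as the scale.

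The target genes gave no common direction. Etv4, an ETS factor induced by FGF signals, had a level of -3.23, -4.12 and -4.02 in the knockouts, against -4.02, -4.12 and -3.90 in the wild types. Knockout 1 stood above the other 5 arrays, which lay together. The difference was 0.22 (SE 0.24; 95% confidence interval -0.33 to 0.78; limma adjusted p = 0.587), and it was -0.06 without knockout 1.

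Etv5, the related ETS factor, lies on chromosome 16, as Dppa2 does. Its first probe had a level of -0.22, -0.81 and -0.32 in the knockouts, against -0.08, 0.04 and -0.43 in the wild types. Knockout 2 was the lowest array and wild type 3 lay between the knockouts. The difference was -0.29 (SE 0.19; 95% confidence interval -0.75 to 0.17; limma adjusted p = 0.388), and -0.11 without knockout 2. The second probe had a difference of -0.06 (SE 0.23; limma adjusted p = 0.899), and the 2 probes correlated at r = 0.79.

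Spry2 encodes an intracellular inhibitor of receptor tyrosine kinase signals. At its first probe the level was 0.44, 0.83 and 0.56 in the knockouts, against 0.74, 1.12 and 0.90 in the wild types. Knockout 2 lay above wild type 1, and the other knockouts lay below every wild type. The difference was -0.31 (SE 0.15; 95% confidence interval -0.66 to 0.05; limma adjusted p = 0.255). The second probe had a level of -3.60, -3.55 and -4.00 in the knockouts, against -5.48, -3.69 and -3.46 in the wild types. Wild type 1 stood far below the other 5 arrays, which gave a difference of 0.49 with an SE of 0.49 (limma adjusted p = 0.57) and -0.15 without wild type 1. The 2 Spry2 probes correlated at r = 0.13 and so do not give 1 reading of the gene.

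By likeness over the 6 arrays, the Etv4 probe was closest to probes of Atp6v0e2 (r = 0.994), Ets1 (0.990) and Gpatch2 (0.989), with 90 of 26632 features at r of at least 0.95. The first Etv5 probe was closest to Ogdh (0.991), Glis2 (0.988) and Rnf10 (0.987), with 122 such features, and the first Spry2 probe to Grpel2 (0.998), Mcts1 (0.995) and Ndufb2 (0.994), with 65. These values rest on 6 arrays that share scaling and slides, and knockout 1 stands apart from the others in the Etv4 values.

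Slide and sex move with genotype in part of the arrays, and the FGF differences were therefore also set out by subsets. On slide 1, knockout 3 differed from wild types 1 and 2 by 0.24 and 0.37 at the Fgf9 probes, by -0.20 at Fgf10, by -0.36 at Fgfr1 probe 1, by 0.42 at Fgfr2 probe 2 and by 0.24 at Fgfr3 probe 3. Each of these had the direction of the full comparison. At all of them except Fgfr2 probe 2 the groups do not overlap, so no subset could turn the direction there. The first 2 Fgfr3 probes turned to -0.09 and -0.05. Between knockout 3 and wild type 3, which both read as female, the values were 0.06 and 0.15 at the Fgf9 probes, -0.05 at Fgf10, -0.33 at Fgfr1 probe 1, 0.51 at Fgfr2 probe 2 and 0.44 at Fgfr3 probe 3. Fgf9 and Fgf10 thus differed little in that pair. Other probes of the receptors moved, with 0.07 and 0.08 at the first 2 Fgfr3 probes and 0.92 at Fgfr1 probe 3. These subsets hold 1 to 2 arrays a side and are given without a test.

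**Figure D3:**
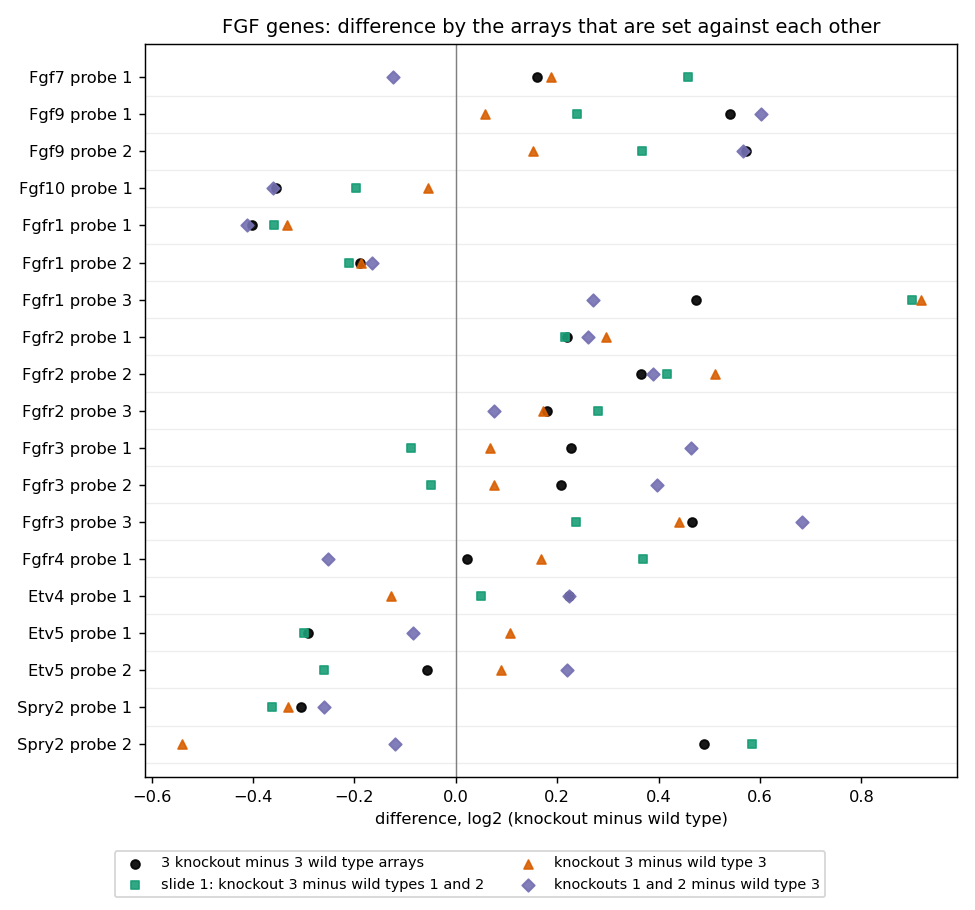
Difference of each FGF probe (knockout minus wild type, log2) over all 6 arrays (black), within slide 1 (green), between knockout 3 and wild type 3 (orange) and between knockouts 1 and 2 and wild type 3 (violet). At both Fgf9 probes and at Fgf10 the orange point is nearest to 0, and at Fgfr2 probe 2 all 4 points lie above 0, from 0.37 to 0.51.

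The plot by subsets also gives knockouts 1 and 2 against wild type 3, where the Fgf9 probes differed by 0.60 and 0.57 and Fgf10 by -0.36. The mean of knockouts 1 and 2, which shared slide 2, was thus farther from wild type 3 than knockout 3 was. Knockout 1 lay farthest, with an Fgf10 level of 0.14, against 0.56 in knockout 2, 0.65 in knockout 3 and 0.71 in wild type 3. In the same order, the levels were -1.85, -2.39, -2.66 and -2.72 at Fgf9 probe 1 and -3.51, -4.10, -4.22 and -4.37 at probe 2. Genes of dividing cells were low in wild types 1 and 2, which read as male, and not in knockout 3 on the same slide. The summed level of 10 proliferation genes, as multiples of the 75th percentile, was 64.4, 51.8 and 52.3 in the knockouts, against 25.8, 25.4 and 55.3 in the wild types. Top2a (0.93), Kif20a (0.91) and Mki67 (0.87), genes of mitosis and cycling cells, had the smallest p of this list. All 10 had a positive difference (median 0.77) that did not pass the test. The median was -0.04 between knockout 3 and wild type 3, 0.00 with a term for sex, 1.04 within slide 1 and 1.14 without wild type 3. All 10 passed without wild type 3, where the share of all probes called also rose above the 1.37% of the full comparison. The part of proliferation, sex and slide in the FGF values was not tested.

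Genes around these 10 members were read from 7 further lists, with 1 probe per gene. Of their 113 genes, 91 could be tested, and by the test 0 rose and 1 fell, beside 1.37% of all probes called. Their median difference was -0.01, with 43 of the 91 positive, beside a median of -0.04 and 44.3% positive over 13939 features with 1 probe per gene.

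Of 19 other ligand genes, 6 were tested and none passed, with 2 differences above and 4 below 0. Fgf12, which encodes an intracellular FGF homologue, had a level of -3.86, -3.78 and -3.19 in the knockouts, against -3.00, -2.76 and -2.64 in the wild types, a difference of -0.80 (limma adjusted p = 0.0812) with -0.84 at another probe. All knockouts were lower. Fgf8, a ligand known from limb and brain patterning, had a difference of 0.50 (limma adjusted p = 0.114), and Fgf1, which binds all FGF receptors, had -0.37 (limma adjusted p = 0.115) with 0.14 at another probe. Fgf18, a further ligand of the lung mesenchyme, had -0.05. Of 15 other receptor and coreceptor genes, 13 were tested and none passed, with 10 differences above 0 and a median of 0.15. Those of smallest p were the heparan sulfate proteoglycan Hspg2 (0.24), the FGF carrier Fgfbp1 (0.38) and the membrane protein Flrt2 (0.27).

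All 12 heparan sulfate enzymes were tested and none passed (median 0.03). Sulf2 and Sulf1, which remove sulfate groups from heparan sulfate outside the cell, had the lowest differences of the list. Sulf2 had a level of 0.56, 0.27 and 0.69 in the knockouts, against 1.47, 1.38 and 0.90 in the wild types, a difference of -0.75 (limma adjusted p = 0.0815). Sulf1 had -0.25, -0.27 and 0.21 in the knockouts, against 0.85, 0.71 and 0.19 in the wild types, a difference of -0.69 (limma adjusted p = 0.114). Wild type 3 lay next to knockout 3 for both genes, with gaps of -0.22 for Sulf2 and 0.02 for Sulf1 between them. Glce, an epimerase of heparan sulfate, had 0.29.

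Of 24 signal transducers, 23 were tested and none passed, with 5 differences above 0, 18 below and a median of -0.12. Over the 13939 features with 1 probe per gene, 44.3% were above 0 and the median was -0.04. The median of the list was 0.01 between knockout 3 and wild type 3 and -0.12 within slide 1. Hras, a small GTPase below the receptors, had a level of 2.37, 2.45 and 2.57 in the knockouts, against 2.71, 2.79 and 2.82 in the wild types, a difference of -0.31 (limma adjusted p = 0.14). Map2k2, the kinase that activates ERK, had -0.31 (limma adjusted p = 0.157). No set test over the list was made.

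Of 17 other target and feedback genes, 13 were tested and none passed, with 5 above and 8 below 0 and a median of -0.01. Spry1, a relative of Spry2, had a level of 3.41, 3.27 and 3.61 in the knockouts, against 4.03, 3.94 and 3.56 in the wild types, a difference of -0.41 (limma adjusted p = 0.174). Wild type 3 lay among the knockouts there. Lrig3, a membrane modulator of receptor signals, had 0.26, and Dusp4, a phosphatase of MAP kinases, had -0.56 (SE 0.35). Dusp6, the phosphatase that reads FGF and ERK activity in many embryonic tissues, had 0.02 (SE 0.16; 95% confidence interval -0.36 to 0.41). All 8 distal bud genes downstream of Fgf10 were tested and none passed (median 0.02). Foxp2, a transcription factor of distal epithelium, had 0.49 (limma adjusted p = 0.111), Shh, an epithelial ligand to the mesenchyme, had 0.45 (limma adjusted p = 0.114), and Mycn had 0.30. Foxp2 and Shh were higher in all 3 knockouts than in every wild type, as were 17.3% of all probes tested. Bmp4 (0.01), Sox9 (-0.06) and Id2 (0.03) were level.

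**Figure D4:**
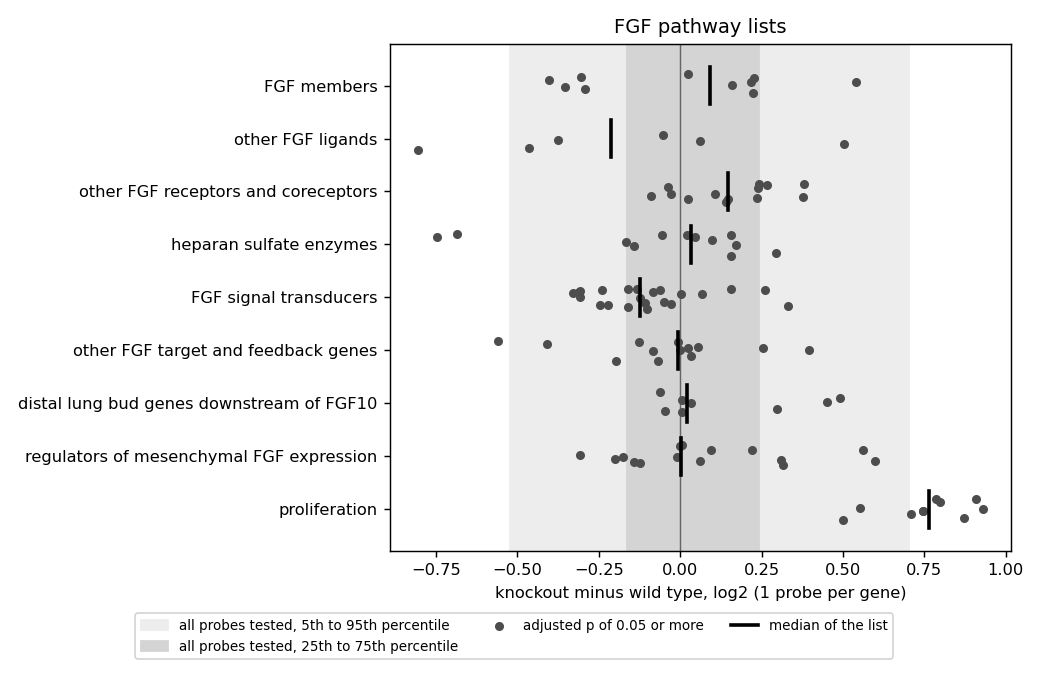
Difference of each gene in the FGF lists (knockout minus wild type, log2, 1 probe per gene), with the median of each list (black bar) and the range of all 26666 probes tested (light grey, 5th to 95th percentile, -0.52 to 0.70; dark grey, 25th to 75th percentile). The proliferation genes lie together around a median of 0.77, and 2 list genes are not plotted.

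The plot of the lists sets each gene against the range of all probes. Among 18 regulators of mesenchymal FGF expression, 16 were tested, with 8 above and 8 below 0 and a median of 0.00. Of these, 1 passed the test and the other 15 did not, beside 1.37% of all probes called. Eya1, a transcriptional coactivator and phosphatase, had 0.06, and Tbx5, a T-box factor of the lung mesenchyme, had 0.00 (SE 0.12) with 0.11 at another probe. The related Tbx4 had a level of -1.54, -0.82 and -0.97 in the knockouts, against -1.39, -1.09 and -2.64 in the wild types, with wild type 3 far below the others. Its difference was 0.60 (SE 0.40), with 0.05 at another probe.

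Cell types in and around the lung were read from marker lists, whose part in the FGF values was not tested. The summed level of lung epithelial markers was 268 to 311 in the knockouts, against 266 to 324 in the wild types, and that of mesenchymal markers 192 to 207 in the knockouts, against 193 to 202 in the wild types, so both ranges overlapped. Mesothelium, a source of Fgf9, had 70.4 to 87.5 in the knockouts, against 86.2 to 88.9 in the wild types, and all 6 of its markers had differences below 0. Of these, Upk1b, a uroplakin of mesothelium, fell by 1.47 (limma adjusted p = 0.0356). Cartilage had 2.98 to 3.43 in the knockouts, against 2.10 to 2.44 in the wild types, with Matn1 below background on all 6 arrays. Of its 7 tested genes, Col9a2, a cartilage collagen, rose by 0.81 (limma adjusted p = 0.0272), and Acan, the cartilage proteoglycan, was at least 1.16-fold lower, with mean levels of -7.01 in the knockouts, all below background, and -6.12 in the wild types. Acan entered the test only through the wild type arrays, so its call is not counted. This bound takes, on each knockout array, the lowest signal called well above background. The calls of Upk1b and Col9a2 were each lost in 11 of 22 alternatives, and Acan turned to 0.86 with normexp. Cardiac muscle markers had 34.8 to 48.3 in the knockouts, against 59.4 to 70.3 in the wild types. Of the 9 that were well above background on all 6 arrays, 6 fell, beside 1.37% of all probes called. These were Myl3, Nkx2-5, Myl4, Myl7, Tnni3 and Tnnt2, genes of the contractile apparatus and a cardiac transcription factor (-2.44 to -1.42). Another Myl3 probe had -1.37 and did not pass (limma adjusted p = 0.0876), while other probes of Myl4 (-1.82) and Tnni3 (-1.27) passed. Actc1 (-0.64), Myh6 (-0.48) and Myh7 (-0.29) did not pass. Myl2 (-1.59) was below background in knockouts 1 and 2. It entered the test only through the wild type arrays, so its call is not counted. Skeletal muscle markers had 1.15 to 1.39 in the knockouts, against 2.23 to 2.46 in the wild types, with Myod1 and Myog below background on all 6 arrays. Of the 6 tested, 3 fell, beside 1.37% of all probes called. Ckm, the muscle creatine kinase, fell by 2.05 (limma adjusted p = 0.00239), and Tnnt1 and Myl1 fell by 1.25 and 1.81. Myh3 (-0.72), Acta1 (-0.09) and Tnnt3 (0.04) did not pass. The median differences of the cardiac and skeletal lists were -1.44 and -0.99 over all arrays, -1.40 and -0.98 in the female arrays only, and -0.73 and -0.06 with normexp, and the last 2 settings gave no call in limma in either list.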

How the data were processed

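Each of 6 Agilent 1-colour arrays held Cy3-labelled total RNA of 1 whole lung. Per the file headers, spots were quantified with Agilent Feature Extraction 10.7.3.1 on an array design that refers to mm9, and the deposited intensity (processed signal) had been background-subtracted and detrended without scaling between arrays. Per the submitters' processing notes, GeneSpring GX 11 was used, and the authors also deposited a log2 table, whose values matched quantile-normalized log2 intensities set relative to the wild type median (median absolute difference up to 0.000788). Its column medians were 0.0108, -0.00698 and -0.000844 for knockouts 1, 2 and 3 and 0 for the wild types. It served as an alternative.

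Intensities were log2 transformed and set relative to each array's 75th percentile, spots of a probe were averaged, and control spots and 77 to 110 outlier-flagged spots per array were left out. No spot was saturated. Probes that every array of either group showed well above background (26666) were compared by limma 3.58.1 (R 4.3.3), with lmFit and eBayes, two-sided, without covariates and with Benjamini-Hochberg adjustment over all probes, and p-values measure the spread between these 6 embryos. Accessions were named through a RefSeq table on GRCm38.p6, which gave a symbol to 26690 probes (64.8%). In lists, the probe of highest mean stood for a gene. Members and lists were chosen with earlier results of these data known. In each pathway list, called genes were named, or otherwise the 3 of smallest p, except for 2 genes that are not reported here; Fgf18, Dusp6, Bmp4, Sox9, Id2, Eya1, Tbx4, Tbx5 and the marker genes were named after their values were seen. The number of arrays limits the precision. The files hold no mean spot signal, so the normexp alternative (offset 50) used median spot signals. The test was checked on simulated data without slide or sex effects, with changes larger than any FGF difference of the full comparison. That check does not cover changes of the size of the FGF differences.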

Additional observations from a re-analysis of the deposited data

How the results depend on the processing

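No FGF probe passed the test in any alternative, where the lowest limma adjusted p was 0.0549, and of 409 values of these probes 385 kept their direction. The background filters, 1 probe per gene, the trend and robust options of eBayes and the replicate block leave a difference as it is. Values from those settings could not turn, so the count of 385 does not measure how stable the directions are. Fgfr4 turned to -0.11 with median scaling, -0.17 with normexp background correction and -0.11 with a term for embryo sex or the female arrays only, and ran from -0.12 to 0.25 as each array was left out. With normexp, which takes spot signals before detrending, Fgfr1 was 0.062 and 0.71 at probes 1 and 2, Etv5 probe 2 was 0.31, Dppa2 was 0.11 and Acan was 0.86; the cause was not tested. With slide as a block or within slide 1, Fgfr3 was -0.089 and -0.049 at probes 1 and 2. Both settings give the same differences, which set knockout 3 against wild types 1 and 2. With the sex term or the female arrays only, Fgf7 was -0.020, Etv5 probe 2 was 0.18 and Spry2 probe 2 was -0.26. Every array read as male was wild type, so these 2 settings also give the same differences, which set the knockouts against wild type 3 alone. Leaving out 1 array at a time gave -0.058 to 0.39 for Etv4, -0.29 to 0.14 for Etv5 probe 2 and -0.15 to 0.86 for Spry2 probe 2.

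The number of probes called, 365 (204 higher, 161 lower), varied. It was 255 with quantile normalization (79 higher, 176 lower), 0 with normexp (limma; 1742 at an unadjusted p under 0.05), 113 with probes above background on at least 1 array, 33 with no filter, 29 with slide as a block, 24 with the sex term, 0 in female arrays only (limma; 1836 unadjusted), 2176 with the number in the raw file names as a random block and 2112 within slide 1. Median scaling moved the median of all probes from 0.02 to -0.11 and gave 119 higher and 281 lower. Leaving out 1 array gave 40 (without wild type 1) to 2236 (without wild type 3) calls, with 87, 97 and 64 without knockout 1, knockout 2 and wild type 2. Among the 101 genes of the 7 pathway lists and the proliferation list, 1 was called in the full comparison, 0 under normexp, both looser filters, slide, sex and female arrays, 3 with the file number as a block, 15 within slide 1 (10 of them proliferation genes) and 0 to 14 as each array was left out (14 without wild type 3, 10 of them proliferation genes). Dppa2 passed with the file number as a block (-1.32, limma adjusted p = 0.0314), was -0.51 between knockout 3 and wild type 3, a comparison chosen after seeing the data, and ran from -1.52 to -1.06 without 1 array.

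The replicate numbers of the labels did not pair the embryos (correlations of deviations -0.02, 0.03 and 0.02). With the replicate block 79 probes, 0 FGF probes and 0 list genes were called. Fits with 1 array in a group assume that it varies like the others. Scan times followed the slides and were not run as a separate block. With 3 arrays a group, a difference whose interval holds 0 cannot be told from 0. Where an interval of an FGF probe left out 0, the probe did not pass after adjustment over all probes.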
